A study of Homo sapiens with 16 samples.

Results

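Genes of the endoplasmic reticulum unfolded protein response were followed in SUM-225 cells kept in the HER2 kinase inhibitor CP724,714. The genes were HSPA5, HSP90B1, PDIA4, HERPUD1, XBP1, EDEM1, DNAJB9, SDF2L1, CALR and HYOU1, and every probe that carried one of these symbols was used. They were 10 of the 18631 gene symbols on the array and had 11 of its 24526 probes, with 2 probes for XBP1 and 1 for each other gene. All 11 were above the detection limit on all 16 arrays, so none was lost to the filter on dim probes.

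The endoplasmic reticulum folds secreted and membrane proteins with the help of chaperones, disulfide isomerases and lectins. When unfolded proteins build up there, the membrane sensors IRE1 (ERN1), PERK (EIF2AK3) and ATF6 raise the synthesis of these helpers and of proteins that remove misfolded clients, and PERK slows translation. IRE1 acts by splicing the XBP1 transcript, and the chaperone BiP, the product of HSPA5, binds the sensors and is itself a target of the response.

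SUM-225 is a breast cancer cell line in which HER2 is amplified and overexpressed. The cells carried no transgene that the labels name, received 1 µM CP724,714 and were harvested as parallel cultures at 16 time points, 3 h apart, from 0 h to 45 h. Each time point was 1 culture on 1 Illumina bead array, and no untreated course was analysed here, so the inhibitor and time in culture cannot be told apart. The labels give a medium with serum, insulin and hydrocortisone, whereas the study's methods describe a serum-free medium for this line that lacks insulin and EGF.

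ERBB2, GRB7, KRT8, KRT18, KRT19, CDH1 and TACSTD1 (EPCAM), which mark a HER2-amplified epithelial line, were detected on all 16 arrays. Of 8 markers of other cell types, PTPRC and HBB were detected on 0 arrays, CD3E on 1, COL1A1 and COL1A2 on 5 each, and CD14, PECAM1 and ACTA2 on 16. The median signal intensity lay between 242 and 384 over the arrays, and between 14110 and 15073 probes were detected. Sets of 4 neighbouring time points (up to 9 h, from 12 h to 21 h, from 24 h to 33 h, and after that) were given a level of their own in an alternative fit. The labels name no batch, and these sets are a choice made for the fit.

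The response acts on promoters through short elements. The ER stress response element (ERSE) joins a CCAAT box, bound by NF-Y, to a CCACG half-site, bound by ATF6 or XBP1. It reads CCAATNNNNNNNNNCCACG, and its compact form ERSE-II is ATTGG followed, after 1 base of any kind, by CCACG. All 10 genes had an entry in the RefSeq promoter sequences of GRCh38.p14, PDIA4 and XBP1 with 2 each, and the 250 bases before each start were searched on both strands. An ERSE was present for 4 genes (HSPA5, HSP90B1, XBP1 and CALR), against 0.074% of 35116 promoters. ERSE-II was present for HERPUD1, SDF2L1 and HYOU1, against 0.0513% of promoters. The UPRE letters TGACGTGG or TGACGTGA were found at HYOU1, where they overlap an ERSE-II, against 0.997% of promoters. PDIA4, EDEM1 and DNAJB9 held none of these letters in the window but held a CCAAT box, as did 32.0% of promoters, and each ERSE and ERSE-II contains a CCAAT box by its own letters. Matches are a description of letters and not shown to be bound. The genes were chosen as members of the response, so the contrast with all promoters is no test. Its shares count promoter entries, of which a gene can have more than 1.

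The promoters of 4 genes are printed 5′ to 3′ on the gene's strand, with the elements in capitals. The members of each pair share an element and had linear estimates of opposite sign, that of HSPA5 short of the threshold. Differences between their courses were not tested. HSPA5 (chr9:125241344-125241593, minus strand) and HSP90B1 (chr12:103930160-103930409, plus strand) hold the ERSE. HERPUD1 (chr16:56931892-56932141, plus strand) and HYOU1 (chr11:119057206-119057455, minus strand) hold ERSE-II.
HSPA5: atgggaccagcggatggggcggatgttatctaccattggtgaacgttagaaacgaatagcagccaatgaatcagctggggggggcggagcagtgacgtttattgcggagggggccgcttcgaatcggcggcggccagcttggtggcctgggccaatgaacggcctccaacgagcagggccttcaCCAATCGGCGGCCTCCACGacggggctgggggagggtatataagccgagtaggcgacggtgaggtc
HSP90B1: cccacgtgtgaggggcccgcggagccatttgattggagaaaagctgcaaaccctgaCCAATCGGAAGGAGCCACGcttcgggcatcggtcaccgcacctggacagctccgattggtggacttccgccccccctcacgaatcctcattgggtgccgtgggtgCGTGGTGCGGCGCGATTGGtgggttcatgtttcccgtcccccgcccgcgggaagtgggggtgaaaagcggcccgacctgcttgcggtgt
HERPUD1: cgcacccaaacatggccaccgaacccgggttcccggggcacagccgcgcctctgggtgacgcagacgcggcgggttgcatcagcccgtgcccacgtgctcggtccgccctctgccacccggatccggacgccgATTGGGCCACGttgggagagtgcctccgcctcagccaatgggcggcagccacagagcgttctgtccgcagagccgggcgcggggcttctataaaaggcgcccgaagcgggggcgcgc
HYOU1: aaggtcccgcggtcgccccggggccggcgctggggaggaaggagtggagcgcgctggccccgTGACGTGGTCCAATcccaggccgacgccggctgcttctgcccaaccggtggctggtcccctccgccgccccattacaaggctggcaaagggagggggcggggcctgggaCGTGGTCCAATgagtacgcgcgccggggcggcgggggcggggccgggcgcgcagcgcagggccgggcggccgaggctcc

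The elements of the other matching genes are printed on the strand on which they read in the forward sense, with their fixed letters in capitals. That of XBP1 (chr22:28800603-28800621) lies on the gene's strand, and those of CALR (chr19:12938384-12938402) and SDF2L1 (chr22:21642114-21642124) on the opposite strand.
XBP1: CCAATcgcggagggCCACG
CALR: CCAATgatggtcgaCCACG
SDF2L1: ATTGGtCCACG

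The 10 genes did not move as one group. HERPUD1 and DNAJB9 rose by about 1 log2 unit over 45 h, and XBP1 rose slightly. Both XBP1 probes lost the call with median scaling, with cyclic loess and without the 0 h or the 3 h array. Under further settings 1 of them lost it too. The folding factors HSP90B1, HYOU1, SDF2L1, CALR and PDIA4 fell by between 0.48 and 0.92. HSPA5 and EDEM1 had upward estimates that did not pass the test. On a cubic course fitted to the log2 values of 16 arrays by limma, 10 of 11 probes depended on time at a Benjamini-Hochberg adjusted p under 0.05, the exception being HSPA5. Among all 16110 probes tested 51.3% did so. A linear trend was found for 9 of 11 probes, of which 4 rose (2 of them XBP1) and 5 fell, against 47.7% of all probes (26% rose and 21.7% fell). The directions were split, and 2 of the 9 calls belong to 1 gene. All 11 probes were detected on 16 arrays. Among the 12344 probes detected on all 16 arrays, 3771 rose and 3041 fell. Whether the shares differ was not tested. Of 11 probes 4 departed from a straight line (HERPUD1, SDF2L1 and both XBP1 probes), against 19.3% of all. With a separate level for each set of 4 arrays, 0 of the 11 within-set trends passed in limma after Benjamini-Hochberg adjustment, against 0.9% of all probes, and 2 (HSP90B1 and HYOU1) had an unadjusted p under 0.05. The SE of that fit lay between 0.24 and 0.82, against 0.05 to 0.22 without the sets. The number of arrays limits the precision, and because no time point was repeated the errors come from the deviations around the fitted course.

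**Figure D1:**
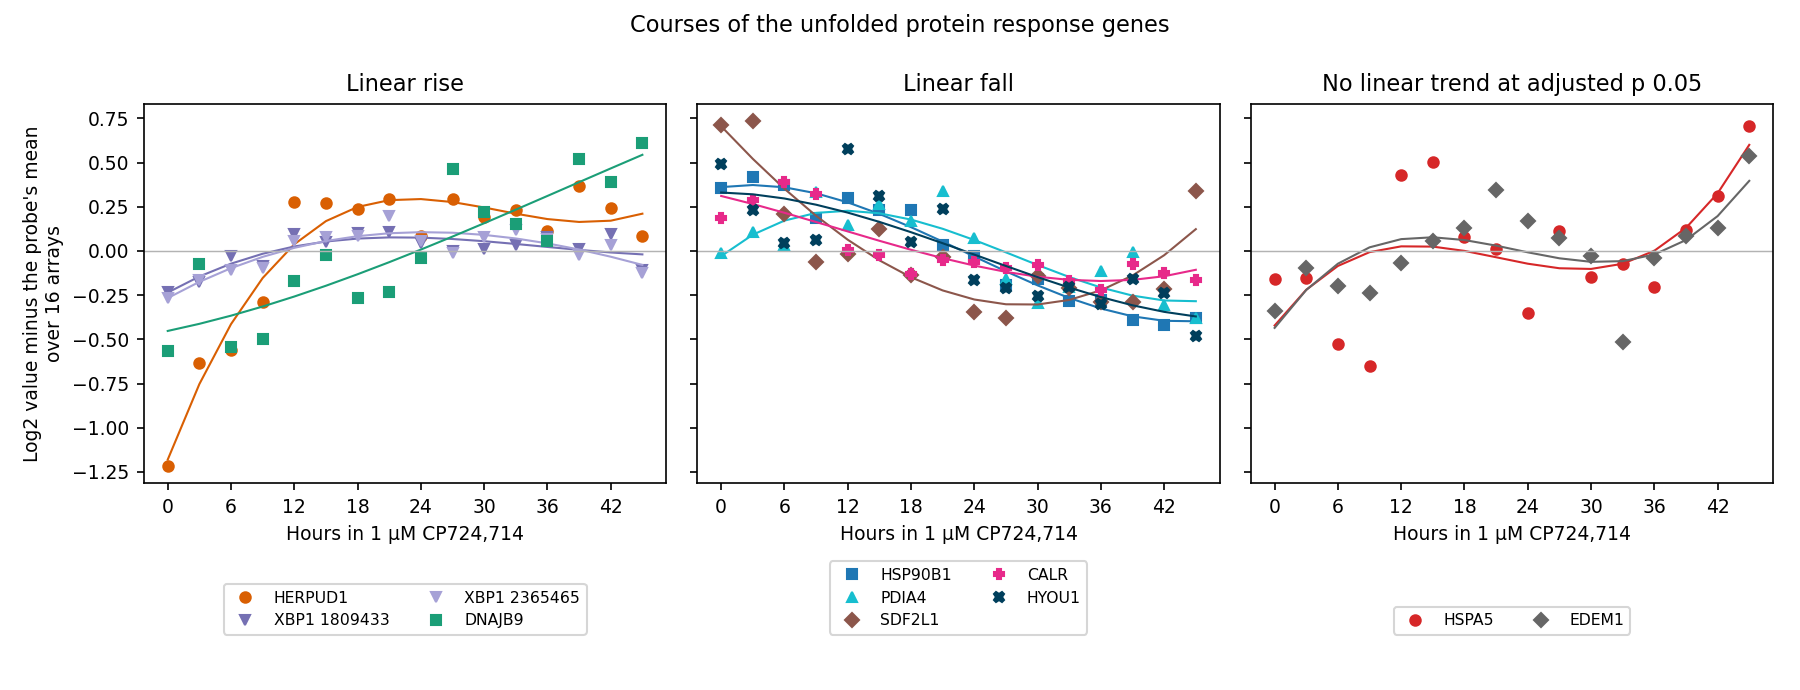
Log2 value of each probe relative to its mean over 16 arrays (y axis) against hours in 1 µM CP724,714 (x axis), in 3 panels by the test of the linear change. Points are single arrays and lines the fitted cubic courses. HERPUD1 climbs until 12 h and then stays level, HSP90B1 falls after 18 h, and HSPA5 is lowest at 9 h and highest at 45 h.

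HSPA5 encodes BiP, the main Hsp70 chaperone of the compartment. Its log2 values (probe ILMN_1773865) were 9.91 at 0 h, then 9.92, 9.55 and 9.42 up to 9 h, 10.50, 10.58, 10.15 and 10.08 from 12 h to 21 h, 9.72, 10.19, 9.93 and 10 from 24 h to 33 h, and 9.87, 10.20, 10.39 and 10.78 from 36 h to 45 h. They fell after 3 h to the lowest value at 9 h, jumped to 12 h and 15 h, sank again to 24 h and climbed to the highest value at 45 h, a range of 2.56-fold. The step from 9 h to 12 h was 1.08 log2 units. The deposited signal intensity, before any correction, ran from 655 to 2025. The mean of the 12 to 21 h arrays exceeded that of the 3 to 9 h arrays by 0.70 ± 0.18 (SE, adjusted p = 0.00685). The 4 arrays of 12 to 21 h were all above the 3 arrays of 3 to 9 h. This step lies at the border of 2 of the sets chosen for the alternative fit, which takes it up in the set levels. With 1 array per time point, technical differences between arrays were not tested. Over 45 h the linear estimate was 0.51 ± 0.22 (SE, adjusted p = 0.0674), the time dependence had an adjusted p of 0.0763, and with the sets as a factor the change was -0.02 ± 0.82. Without the 45 h array the linear change was 0.32, and without the 12, 15 or 36 h array it passed the test, with values of 0.61, 0.58 and 0.59. The time dependence passed with array weights (adjusted p = 0.0465). It also passed in 3 of the 16 repeats that left out 1 array, those without the 0, 9 or 15 h array.

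HYOU1, an Hsp70-related chaperone that also exchanges nucleotide on BiP, fell. Its log2 value (probe ILMN_2141790) was lowest at 45 h (9.83) and highest at 12 h (10.88), with a median of 10.25. Over 45 h it changed by -0.79 ± 0.14 (SE, adjusted p = 0.000146). From 24 h on every array was below every array before 24 h, and the mean of 24 to 33 h was below that of 12 to 21 h by 0.50 log2 units (-0.50 ± 0.10, adjusted p = 0.00402). When a step between 21 and 24 h was given a term of its own, the remaining linear change was -0.10. With the sets as a factor it was -1.33 ± 0.47 (SE, adjusted p = 0.183), larger than without them but short of the threshold.

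HSP90B1 encodes GRP94, the Hsp90 chaperone of the compartment, and had the smallest adjusted p of the 11 probes. Its log2 values (probe ILMN_2096116) from 0 h to 45 h were 15.32, 15.39, 15.34, 15.15, 15.27, 15.20, 15.20, 15.00, 14.94, 14.77, 14.81, 14.68, 14.69, 14.58, 14.55 and 14.59. They stayed between 15.15 and 15.39 until 18 h and between 14.55 and 14.81 from 27 h on, with the 21 h and 24 h arrays in between. HSP90B1 had a linear change of -0.92 ± 0.06 (SE, adjusted p = 2.62e-10) and a range of 1.79-fold. The difference between 24 to 33 h and 12 to 21 h was -0.37 ± 0.07 (SE, adjusted p = 0.00149). Its estimate with the sets as a factor was -0.91 ± 0.24 (SE, adjusted p = 0.0828), the same size with a larger error.

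CALR, a calcium-binding lectin chaperone for glycoproteins, fell early. Its log2 value (probe ILMN_1736256) was lowest at 36 h (11.77) and highest at 6 h (12.38), with a median of 11.92. All 4 arrays from 0 h to 9 h were above all 12 later ones. The 12 to 21 h mean was below the 3 to 9 h mean (-0.38 ± 0.07, adjusted p = 0.000461), and the linear change was -0.49 ± 0.09 (SE, adjusted p = 0.000187). With the sets as a factor the change was 0.02 ± 0.32 (SE). The fall from 9 h to 12 h lies at a border of the chosen sets, so that fit takes it up in the set levels. Technical differences between arrays were not tested.

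SDF2L1 is a small soluble cochaperone found in complexes with BiP and DNAJB11. Its log2 values (probe ILMN_1749213) were 13.22 at 0 h and 13.24 at 3 h, the highest, then 12.71 at 6 h and 12.44 at 9 h. The lowest value was 12.13 at 27 h, and the 45 h value was 12.85, higher than at any time from 6 h to 42 h. SDF2L1 had a linear change of -0.64 ± 0.13 (SE, adjusted p = 0.000308), with curvature past the threshold too (adjusted p = 0.00204). The estimate was -0.93 without the 45 h array and -0.47 without the 0 h array, and passed the test both times. The estimate with the sets as a factor was -0.21 ± 0.75 (SE, adjusted p = 0.935).

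PDIA4, a protein disulfide isomerase, fell late. Its log2 value (probe ILMN_1815261) was lowest at 45 h (9.64) and highest at 21 h (10.36), with a median of 10.04. The linear change was -0.48 ± 0.12 (SE, adjusted p = 0.00268), and the difference between 24 to 33 h and 12 to 21 h was -0.38 ± 0.11 (SE, adjusted p = 0.0314). That difference lay between -0.40 and -0.33 but no longer passed the test when the 15, 18, 21, 27, 30 or 33 h array was left out. The linear change with the sets as a factor was -0.23 ± 0.52 (SE, adjusted p = 0.886).

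HERPUD1 is a membrane protein that organises the degradation machinery for misfolded clients (ER-associated degradation, ERAD). Its log2 values (probe ILMN_2374159) from 0 h to 45 h were 12.82, 13.40, 13.47, 13.74, 14.31, 14.30, 14.27, 14.33, 14.12, 14.33, 14.23, 14.27, 14.14, 14.40, 14.28 and 14.11. The 0 h value was the lowest, the values from 3 h to 9 h lay in between, and all arrays from 12 h on were above all earlier ones, between 14.11 and 14.40. The range from 0 h to 39 h was 2.99-fold, the widest of the 11 probes. The linear change was 0.97 ± 0.10 (SE, adjusted p = 2.41e-07). It was the only probe of the 11 to pass the test in the first hours, with a mean of 3 to 9 h above the 0 h array by 0.72 ± 0.12 (SE, adjusted p = 0.00236), against 2.33% of all probes called in that comparison (1.14% rose and 1.19% fell). The 0 h group is 1 array, whose spread is assumed to be that of the later segments, and with array weights the difference was 0.66 (adjusted p = 0.598). The next difference, 12 to 21 h minus 3 to 9 h, was 0.76 ± 0.08 (SE, adjusted p = 1.73e-06). The linear change with the sets as a factor was 1.12 ± 0.55 (SE, adjusted p = 0.350).

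DNAJB9 (ERdj4), a J-domain cochaperone of BiP that takes part in ERAD and represses IRE1, rose over the whole course. Its log2 values (probe ILMN_1773742) from 0 h to 45 h were 9.74, 10.23, 9.76, 9.81, 10.14, 10.29, 10.04, 10.08, 10.27, 10.77, 10.53, 10.46, 10.36, 10.83, 10.70 and 10.92. The lowest was at 0 h and the highest at 45 h, a range of 2.26-fold, and every array from 24 h on was above all 4 arrays from 0 h to 9 h. The linear change was 1.02 ± 0.16 (SE, adjusted p = 2.11e-05), with no departure from a straight line detected (adjusted p = 0.916). The difference between 24 to 33 h and 12 to 21 h was 0.37 ± 0.13 (SE) and did not pass the test (adjusted p = 0.0895), except without the 3 h array (adjusted p = 0.0473). With the sets as a factor the change was 0.45 ± 0.64 (SE).

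EDEM1, a lectin that directs misfolded glycoproteins to ERAD, was near the threshold. Its log2 value (probe ILMN_1779828) was lowest at 33 h (8.06) and highest at 45 h (9.11), with a median of 8.59, and the neighbouring 30 h and 36 h values were 8.55 and 8.53. Its linear estimate was 0.38 ± 0.16 (SE, adjusted p = 0.0637). The time dependence had an adjusted p of 0.0491, and it passed the test in 4 of the 16 repeats that left out 1 array. It did not pass with median scaling (adjusted p = 0.0756), cyclic loess (0.111), array weights (0.177) or a quadratic course (0.219). Nor did it pass without the detection filter (0.0903) or without the trend option (0.0560). The linear change passed without the 21 h or the 33 h array (0.38 and 0.48) and was 0.23 without the 45 h array.

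XBP1 encodes the transcription factor that IRE1 activates by splicing. Its 2 probes (ILMN_1809433 and ILMN_2365465) had log2 values from 15.69 to 16.03 and from 15.65 to 16.12, both lowest at 0 h and highest at 21 h. The positions of the probes in the transcript are not in the table, so the spliced and unspliced forms were not separated here. The linear changes were 0.14 ± 0.05 (SE, adjusted p = 0.0405) and 0.16 ± 0.05 (SE, adjusted p = 0.0196), and the 12 to 21 h means exceeded the 3 to 9 h means by 0.19 ± 0.05 (SE, adjusted p = 0.0110) and 0.23 ± 0.05 (SE, adjusted p = 0.00360). Their signals reached 96.2% and 99.0% of the brightest signal of the same array and whether this position at the top of the range affected their values was not tested. The linear changes were 0.01 and 0.05 with median scaling and did not pass the test there, nor with cyclic loess (0.13 and 0.17). They were 0.07 and 0.08 without the 0 h array and also lost the call without the 3 h array, and ILMN_1809433 lost it without the 9, 33, 36 or 42 h array too. ILMN_1809433 also lost it without the detection filter and without the trend option. With median scaling the differences between 12 to 21 h and 3 to 9 h turned to -0.18 and -0.14.

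**Figure D2:**
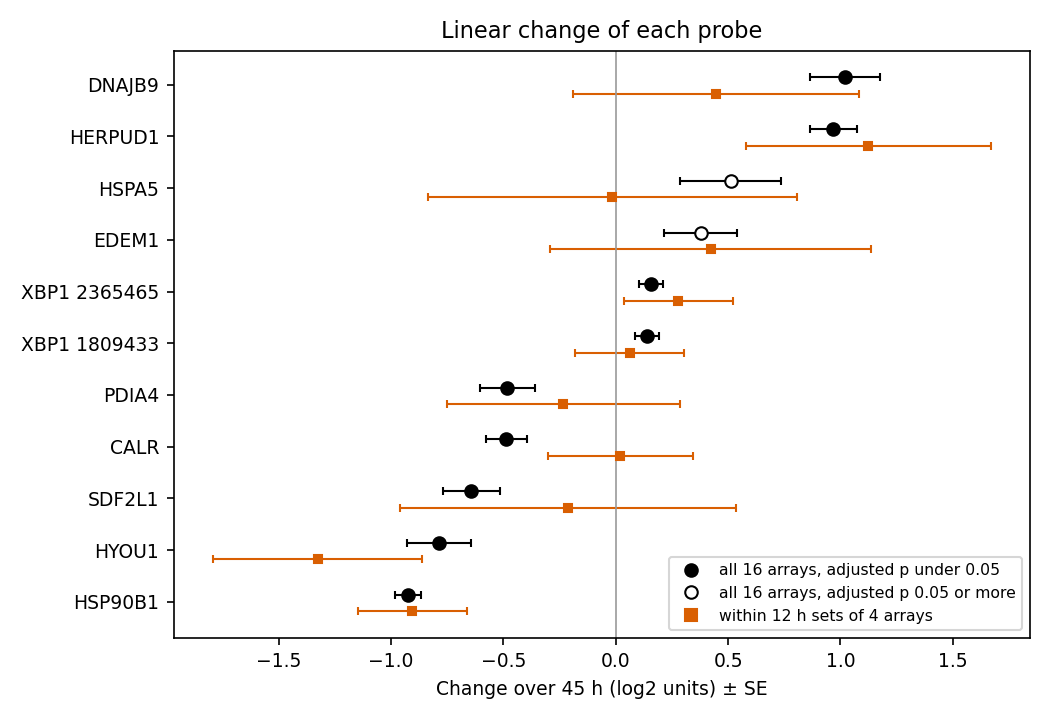
Linear change over 45 h in log2 units (x axis) for each of 11 probes (y axis, XBP1 probes by number). Circles are the estimates from all 16 arrays, filled where the adjusted p was under 0.05, squares are the estimates with each set of 4 arrays given its own level, and bars are SE. HSP90B1 (-0.91) and HERPUD1 (1.12) have squares near their circles, HSPA5 (-0.02) and CALR (0.02) have squares at 0.

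Between consecutive segments of the course the genes changed at different times. From 3 to 9 h to 12 to 21 h 5 of 11 probes passed the test, against 27.7% of all probes, with HSPA5, HERPUD1 and both XBP1 probes rising (14.8% of all rose) and CALR falling (12.9% of all fell). From 12 to 21 h to 24 to 33 h 3 probes passed, HSP90B1, PDIA4 and HYOU1, all falling, against 9.3% of all probes in either direction (5.2% rising and 4.11% falling). From 24 to 33 h to 36 to 45 h 0 of 11 passed in limma at the adjusted threshold, against 4.01% of all (0.9% rising and 3.11% falling), and 1 (HSP90B1, -0.20 ± 0.07) had an unadjusted p under 0.05 (0.00836). In the same step HSPA5 had 0.35 ± 0.17 (SE) and EDEM1 0.25 ± 0.15 (SE). HSPA5 rose by 0.70 in the segment step in which HSP90B1 had -0.13 ± 0.07 (SE), and the difference between these genes was not tested. Leaving out the 3 h array gave 2 calls in the first hours in place of 1, with SDF2L1 at -0.64 (adjusted p = 0.0445), and SDF2L1 also passed from 3 to 9 h to 12 to 21 h without the 9 h array (-0.49).

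**Figure D3:**
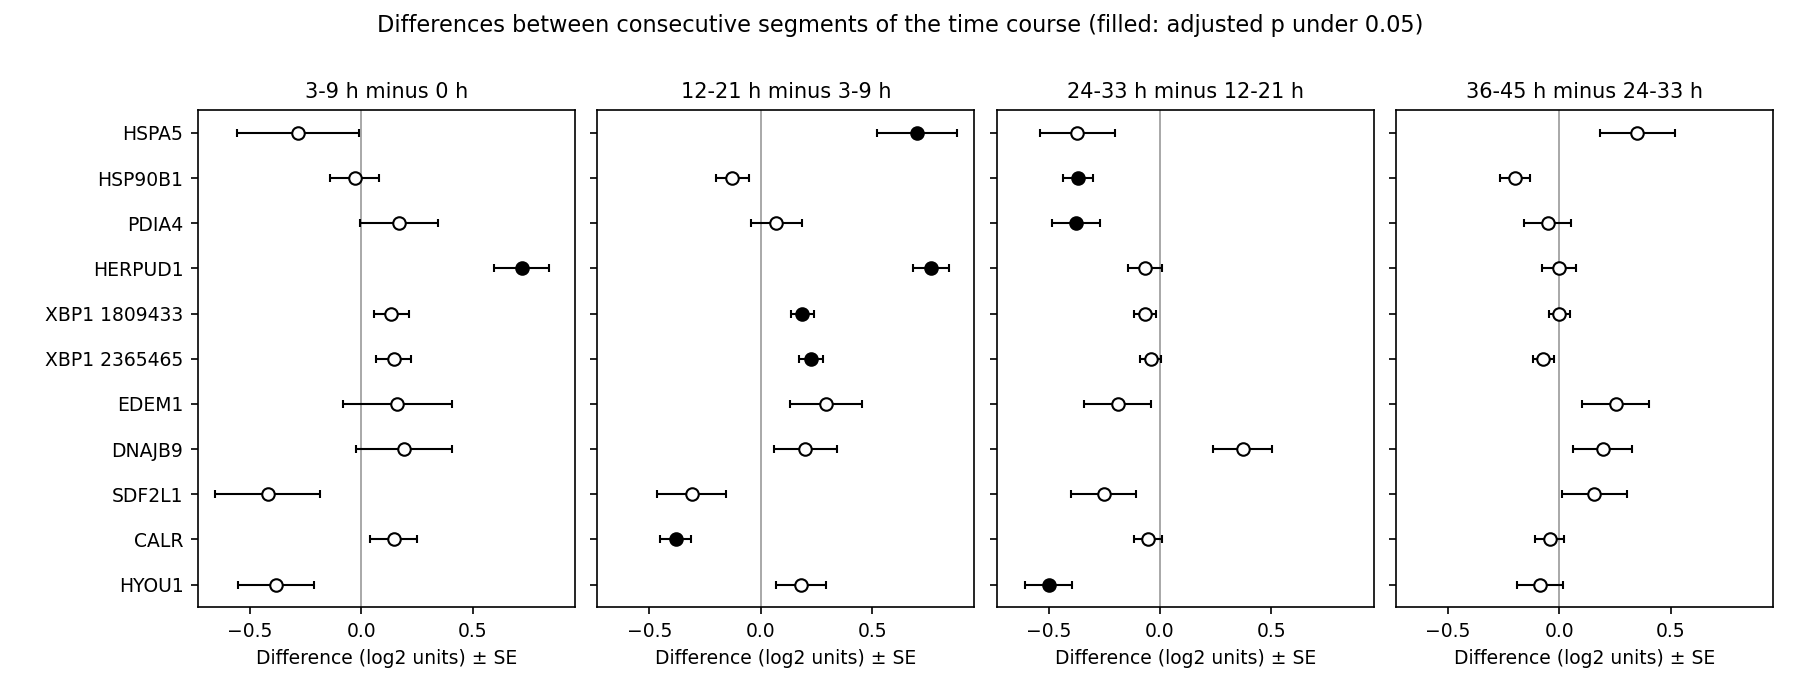
Differences of segment means in log2 units (x axis) for each of 11 probes (y axis) in 4 panels, one for each pair of consecutive segments. Circles are estimates, filled where the adjusted p was under 0.05, and bars are SE. The filled circles are 1 in the first panel, 5 in the second, 3 in the third and 0 in the last.

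The courses of the genes were set against each other as a description, over 16 arrays that share the same cultures and scaling. Of 45 pairs of genes, 22 had a Pearson r above 0 and 4 above 0.7, with a median of -0.03. The highest were 0.83 for HERPUD1 with XBP1 and 0.83 for HSP90B1 with HYOU1, and the lowest was -0.84 for HSP90B1 with DNAJB9. The ERSE or ERSE-II letters were present on both sides, in HERPUD1, which rose, in XBP1, whose small rise lost its call with median scaling, with cyclic loess and without the 0 h array, and in HSP90B1, HYOU1, CALR and SDF2L1, which fell. HSPA5 was most like DNAJB9 among the other genes (r = 0.60) and least like CALR (r = -0.57). Over all 16109 other probes tested the median r with HSPA5 was 0.06 and the 95th percentile 0.58.

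The 8 probes of other genes whose courses were most like that of HSPA5 were PIGG (r = 0.89), FAM44B (0.89), SMUG1 (0.89), PFAAP5 (0.88), ZDHHC5 (0.88), RKHD2 (0.85), B3GALT6 (0.84) and CDC16 (0.84), each over 16 arrays. They were picked for their likeness to a course with an upward estimate, and their own linear changes of 0.19 to 0.40 are a description that follows from that choice. None of the 10 genes was among them, and DNAJB9 ranked 676 of 16109.

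A list of membrane sensors and related genes held more rises than falls. It held ERN1, ATF6, CREBL1, the proteases MBTPS1 and MBTPS2, EIF2S1, CREB3, CREB3L1, CREB3L2, CREB3L4 and TRAF2. Of 11 genes tested, 6 had a linear rise (ERN1, ATF6, CREBL1, MBTPS1, CREB3 and CREB3L2) and 1 a fall (TRAF2), with a median change of 0.32, against 3545 rises (27%) and 2878 falls (22%) among 13108 genes, each by its brightest probe, and a median of 0.06. With a level for each set of 4 arrays, 0 of the 11 passed in limma after adjustment (1 at an unadjusted p under 0.05) and the median was 0.02, and with a step between 21 and 24 h 1 rose, 0 fell and the median was 0.45. ERN1, which encodes IRE1, rose by 1.16 ± 0.10 (SE, adjusted p = 2.78e-08). ATF6 rose by 0.45 ± 0.11 (adjusted p = 0.00171), its relative CREBL1 (ATF6B) by 0.57 and MBTPS1, the protease that cuts them in the Golgi, by 0.32. TRAF2, an adaptor of IRE1, fell by 0.86 (-0.86 ± 0.16, adjusted p = 0.000192). MBTPS2 (-0.17), EIF2S1 (-0.04), CREB3L1 (-0.56, detected on 5 arrays) and CREB3L4 (-0.15) did not pass the test. EIF2AK3 was not among the symbols of the table. CREBL1 lost its call without the 0 h array (0.37), and CREB3 without the 39 h or 45 h array.

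In the branch of ATF4, the factor whose translation PERK favours, 5 of 11 genes rose and 1 fell, with a median of 0.23, beside 27% and 22% of all genes. With the sets as a factor 0 of these passed in limma after adjustment (3 at an unadjusted p under 0.05) and the median turned to -0.10, and with the step 1 rose and 0 fell. DDIT3 (CHOP) rose by 0.94 ± 0.16 (SE, adjusted p = 9.63e-05), ATF3 by 0.90, HERPUD2, a relative of HERPUD1 placed in this list, by 0.78, ATF4 itself by 0.71 ± 0.13 (adjusted p = 0.000177) and PPP1R15A (GADD34) by 0.33. The 2 other ATF4 probes had changes of 1.05 and -0.31, the latter detected on 6 arrays. ASNS, the asparagine synthetase gene, fell by 1.53 (-1.53 ± 0.30, adjusted p = 0.000324) on its brighter probe, with 12 to 21 h above 3 to 9 h by 0.73 and 24 to 33 h at -1.17 relative to 12 to 21 h. Its other probe, detected on 16 arrays, had -0.85 ± 0.38 and did not pass (adjusted p = 0.0708), and with the step the brighter probe had -0.02. TRIB3, CHAC1, SESN2, CEBPB and PPP1R15B did not pass the test for a linear change (values from -0.27 to 0.23). Of these, SESN2 was detected on 3 arrays and PPP1R15B on 11. The mean of TRIB3 at 3 to 9 h stood at -0.98 log2 units relative to the 0 h array, a difference that rests on 1 array whose spread is assumed, and its 12 to 21 h mean was above that of 3 to 9 h by 0.74. PPP1R15A lost its call without the 0, 9, 36, 39 or 45 h array, with 0.21 without the last. CEBPB, at -0.03, passed the test without the 3 h array (-0.29).

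The genes of ERAD rose more often than they fell, as HERPUD1 and DNAJB9 did. Of 22 tested, 8 rose and 1 fell (27% and 22% of all genes), with a median of 0.17. With the sets as a factor 0 passed in limma after adjustment (1 at an unadjusted p under 0.05) and the median turned to -0.15, and with the step 2 rose and 0 fell. The called changes ran from EDEM3 (0.72 ± 0.11, adjusted p = 3.31e-05) to UFD1L (-1.01 ± 0.15, adjusted p = 1.04e-05), which encodes a partner of the VCP segregase. Foldases and lectins went the other way, with 9 of 19 falling and 3 rising and a median of -0.12. That direction also depended on the course fitted, since with the step 2 rose, 1 fell and the median turned to 0.16, and with the sets 0 passed in limma after adjustment (3 at an unadjusted p under 0.05, median -0.07). PRDX4, a peroxiredoxin that feeds oxidation to disulfide isomerases, fell by 0.92 (-0.92 ± 0.09, adjusted p = 5.04e-08), and TXNDC10 (TMX3) rose by 0.79 ± 0.17 (adjusted p = 0.000669). Between 12 to 21 h and 24 to 33 h 6 of these 19 fell and 1 rose, against 557 falls and 717 rises among 13108 genes. In the same segment HSP90B1, PDIA4 and HYOU1 fell.

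The other lists were split, beside rises in 27% and falls in 22% of all genes. Of 13 cochaperones and soluble partners 2 rose and 4 fell, from SIL1, which exchanges nucleotide on BiP (0.55 ± 0.10), to DNAJC3, an inhibitor of PERK (-0.67 ± 0.17). The SIL1 change was 0.34 without the 45 h array, and its 2 other probes had 0.12 and -0.58, which did not pass the test. Of 20 translocon and signal peptide genes 3 rose and 7 fell, from TLOC1 (SEC62, 0.82 ± 0.17) to SEC61A2 (-0.81 ± 0.16). Of 24 transport genes 5 rose and 7 fell, from SEC24A (0.64 ± 0.21), which lost its call without the 3 h array, to KDELR3 (-1.14 ± 0.11), a receptor that returns escaped chaperones. With 1 array left out in turn, the rising counts of the translocon and transport lists ranged from 1 to 4 and from 2 to 5, and the falling count of the ERAD list from 1 to 4. In the fit with sets 0 genes of the cochaperone, translocon and transport lists passed in limma after adjustment (5, 2 and 0 at an unadjusted p under 0.05), and with the step 2, 3 and 1 rose and 0, 1 and 1 fell.

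**Figure D4:**
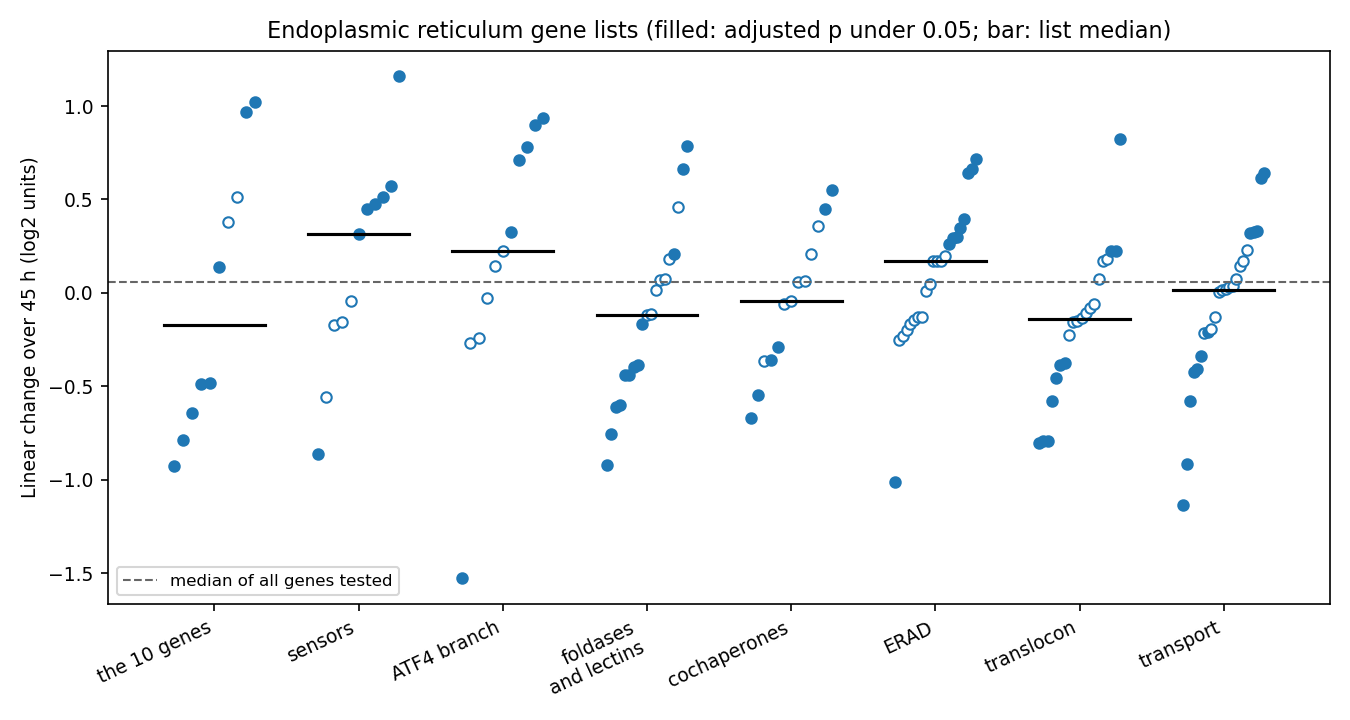
Linear change over 45 h in log2 units (y axis) of every tested gene of 8 lists (x axis), taking the brightest probe of a gene. Circles are genes, filled where the adjusted p was under 0.05, bars are list medians and the dashed line is the median of all genes tested (0.06). The sensor, ATF4 branch and ERAD medians lie above the dashed line and the foldase and translocon medians below it.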

How the data were processed

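Total RNA from SUM-225 cultures was amplified into biotinylated cRNA and read on Illumina bead arrays, 1 per time point. The deposited table gives a linear signal intensity per probe and array, which the authors had neither corrected for background nor normalized, and a deposited detection p-value. Array version, scanning software and genome build are not given in the sources used here for these samples. Groups were the times in the labels.

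Intensities were corrected by normexp with controls inferred from the detection p-values (offset 16), quantile normalized and log2 transformed (neqc, limma 3.58.1 in R 4.3.3), which shrinks fold changes where signals are dim. Tests covered the 16110 probes whose detection p was under 0.05 on 3 or more arrays. A cubic polynomial in hours and contrasts of segment means were fitted with lmFit, and eBayes was run with its trend option. Tests were two-sided with Benjamini-Hochberg adjustment over all probes tested, at 0.05, and were tested on simulated data. The p-values measure the spread around a course, which may be technical.

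The genes, lists and segments were chosen with earlier results of these data known. Named were the 10 genes, the tested sensor and ATF4 branch genes, the largest rise and fall of each other list past the threshold, and the 8 probes most like HSPA5. The brightest probe stood for a gene in lists. A further marker of other cell types is not reported here. Promoter sequences came from RefSeq (GRCh38.p14). Alternatives changed background, offset, normalization, filter, weights, variance prior and time course, and left out each array in turn. Plots used matplotlib 3.10.9 and Python 3.11.15.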

Additional observations from a re-analysis of the deposited data

How the results depend on the processing

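No paired analysis was possible because no time point holds over 1 array. Counts are of the 11 probes. With median scaling and with cyclic loess, 7 probes depended on time (10 as reported). Median scaling and cyclic loess each left 2 departures from a straight line (4 as reported) and 3 differences between 12 to 21 h and 3 to 9 h (5 as reported). Array weights left 0 calls in the first hours (1 as reported) and gave 1 for 36 to 45 h (HSP90B1, 0 as reported). The 12 h set as a factor left 0 linear changes and a step between 21 and 24 h left 4 (9 as reported), and both fits add terms that take up change with time. With 1 array left out in turn, 9 to 11 probes depended on time, 7 to 10 had a linear change, 3 to 5 departed from a straight line, and 1 to 2, 4 to 6, 2 to 4 and 0 to 0 passed in the consecutive segment differences. The first hours gave 2 without the 3 h array. All other counts of these probes under an alternative stayed within 1.5 times the reported count.

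Signs turned in these cases, none of them past the threshold after turning. With median scaling XBP1 probe ILMN_1809433 had -0.18 at 12 to 21 h and 0.058 at 24 to 33 h, and ILMN_2365465 had -0.14 at 12 to 21 h and 0.021 at 36 to 45 h, each against the segment before. With cyclic loess the values were 0.014 for ILMN_1809433 at 24 to 33 h and 0.0024 for ILMN_2365465 at 36 to 45 h. The linear change with a level for each 12 h set was -0.015 for HSPA5, 0.020 for CALR, -0.26 for SEC24A, -0.093 for MBTPS1, 0.36 for MBTPS2, 0.024 for CREB3L1, -0.095 for PPP1R15A, -0.61 for CHAC1, -0.067 for PIGG and -0.15 for B3GALT6. With the step it was 0.016 for PDIA4, 0.50 for DNAJC3, 0.85 for CREB3L4, -0.077 for PPP1R15A, -1.01 for PPP1R15B, 0.41 for TRIB3 and 0.069 for CEBPB. Array weights gave 0.16 for SESN2 and 0.34 for CEBPB. Over the arrays left out EIF2S1 ranged from -0.21 to 0.058, CHAC1 from -0.12 to 0.25 and CEBPB from -0.29 to 0.079. The causes were not tested.

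The falls of HSP90B1 and CALR and the rise of HERPUD1 passed the test under every alternative except the 12 h set as a factor. The remaining falls and the rise of DNAJB9 passed without any one array and under every background, offset, normalization, filter, weight and prior setting tried. Among all probes the median linear change lay between 0.003 (cyclic loess) and 0.05 under the background, offset, normalization, filter, weight and prior settings. With 1 array per time point, change faster than the fitted course was not separated from noise, and the 3 h spacing does not show shorter pulses. All 11 probes were detected on every array. The dimmest, EDEM1, had a linear change of 0.27 without background correction and 0.35 with an offset of 50, against 0.38.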
